A study of Homo sapiens with 6 samples.

Results

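The exon junction complex is a protein assembly that the spliceosome leaves on messenger RNA just upstream of each new exon junction. The genes described here are 10 of the 58735 genes in the count table, chosen by name: the core subunits EIF4A3, RBM8A, MAGOH, MAGOHB and CASC3, the recycling factor PYM1, the helicases DDX39A and DDX39B and the adaptor ALYREF of the TREX export complex, and the export receptor NXF1. The choice was made with earlier results of these data known. All 10 names matched 1 gene each, and all 10 passed the filter on low counts (at least 10 counts in at least 3 libraries), as did 15801 genes in all. The cells were LoVo (labelled LOVO), a colorectal cancer cell line in long use, and each group had 3 libraries. The si-NC cells received a control siRNA and the si-SRSF11 cells an siRNA that targets SRSF11, a serine/arginine-rich splicing factor, so both groups had been transfected and no other agent or allele is labelled. Polyadenylated RNA was sequenced, and the study describes the libraries as 3 pairs of independent RNA samples. What made a pair is not stated in the sources used here, and the main fit used condition alone. Which of its SRSF11 siRNAs was sequenced is not stated in the sources used here, and nothing states that the transfections were separate, so p-values measure the spread between these libraries in 1 cell line.

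In human cells EIF4A3, an RNA helicase of the DEAD-box family, clamps the RNA, and a dimer of RBM8A (also called Y14) with MAGOH or MAGOHB locks the clamp. CASC3 (also called MLN51 or BTZ) joins the assembled core, and PYM1 helps to take the core apart when ribosomes pass. DDX39B (also called UAP56) and its paralog DDX39A (URH49) load adaptors such as ALYREF on spliced RNA, and ALYREF hands the RNA to NXF1, which carries it through the nuclear pore. The comparison asked how the messenger RNAs of these genes stood after knockdown of a splicing factor.

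Counts per library added up to between 14369525 and 16685719. SRSF11 itself was at 87.6, 84.3 and 87.5 CPM (counts scaled to a library total of 1000000, with the TMM method's factors between libraries) in si-NC and at 50.5, 48.6 and 49.5 in si-SRSF11. Its log2 fold change, si-SRSF11 over si-NC, was -0.81 (SE 0.054, adjusted p = 6.1e-10), which leaves 57.2% of the si-NC level. Of 10 colorectal epithelial markers all had counts, with summed levels of 5610 to 5944 CPM in si-NC and 5717 to 6071 in si-SRSF11, although KRT20 had only 6 to 20 counts and KRT8 and KRT18 made up most of the sum. Of these markers the intestinal transcription factors CDX1 and CDX2 were called higher in si-SRSF11, with log2 fold changes of 0.31 (adjusted p = 0.0012) and 0.40 (adjusted p = 0.00038), and their part in the results was not tested. Of 9 markers of other cell types 2 were at 0 in all 6 libraries (PTPRC and DCN). COL1A1 (179 to 206 counts), ACTA2 (53 to 78) and CD14 (39 to 67) had the most counts of that list. It summed to 21.1 to 23.2 CPM in si-NC and 20.1 to 22.7 in si-SRSF11. Mitochondrially encoded genes took 7.003 to 7.25% of the counts in si-NC and 8.29 to 8.51% in si-SRSF11, and their part in the results below was not tested. In bulk RNA a change in a gene's RNA per cell and a change in the mix of cells cannot be told apart.

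The members include 2 pairs of paralogs, and short stretches of their coding sequence are shown first because they set how well reads can be assigned to either gene of a pair. The stretches are 60 bases of the principal coding transcripts on GRCh38, 5′ to 3′, and capitals mark the bases that differ within a pair.
DDX39A: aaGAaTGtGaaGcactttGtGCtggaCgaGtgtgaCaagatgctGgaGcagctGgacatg
DDX39B: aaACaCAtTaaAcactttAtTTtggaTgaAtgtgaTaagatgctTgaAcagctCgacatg
MAGOH: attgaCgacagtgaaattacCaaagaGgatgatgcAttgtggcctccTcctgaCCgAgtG
MAGOHB: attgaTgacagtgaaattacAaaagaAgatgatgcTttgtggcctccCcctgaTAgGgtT

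The DDX39A stretch covers coding positions 559 to 618 and crosses from exon 5 to exon 6 of 11 exons (minus strand, chr19:14410330-14411043), and the DDX39B stretch covers positions 562 to 621 across the same exons (minus strand, chr6:31535481-31536554). Within these 60 bases the helicases differ at 15 positions. The MAGOH stretch lies in exon 3 of 5 at positions 190 to 249 (minus strand, chr1:53233551-53233610), and the MAGOHB stretch lies in exon 3 of 5 at positions 196 to 255 (minus strand, chr12:10609840-10609899). These differ at 9 positions. Over the whole coding alignment DDX39A and DDX39B shared 1025 of 1281 bases (80.0%), with a longest identical run of 26 bases, and 90.2% of aligned residues. MAGOH and MAGOHB shared 380 of 438 bases (86.8%), with a longest run of 38 bases, and 145 of 146 aligned residues. Between the paralogs no window of 100 bases was identical.

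Of the 10 members 5 passed the test between si-SRSF11 and si-NC at an adjusted p under 0.05 (edgeR, Benjamini-Hochberg over all tested genes). ALYREF, DDX39A, PYM1 and EIF4A3 rose, and DDX39B fell. Over all tested genes 24.6% passed, 13.2% as higher and 11.4% as lower, and among the 7043 genes whose mean CPM lay between the lowest and the highest member 32.8% passed. The median log2 fold change of the 10 members was 0.14, beside 0.0015 over all tested genes, and 8 members had an unadjusted p under 0.05, as had 36.3% of tested genes. The changes were small: no member passed a log2 fold change of 1 in size together with the adjusted p, a pair of limits that 1.09% of tested genes passed. The 2 groups of libraries did not overlap in CPM for 7 members (5 higher and 2 lower in si-SRSF11), against 38.8% of all tested genes. Scaling by library size in place of TMM called 4 members higher and 2 lower, and over all genes it moved the calls from 2081 higher and 1805 lower to 1585 higher and 2289 lower.

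**Figure D1:**
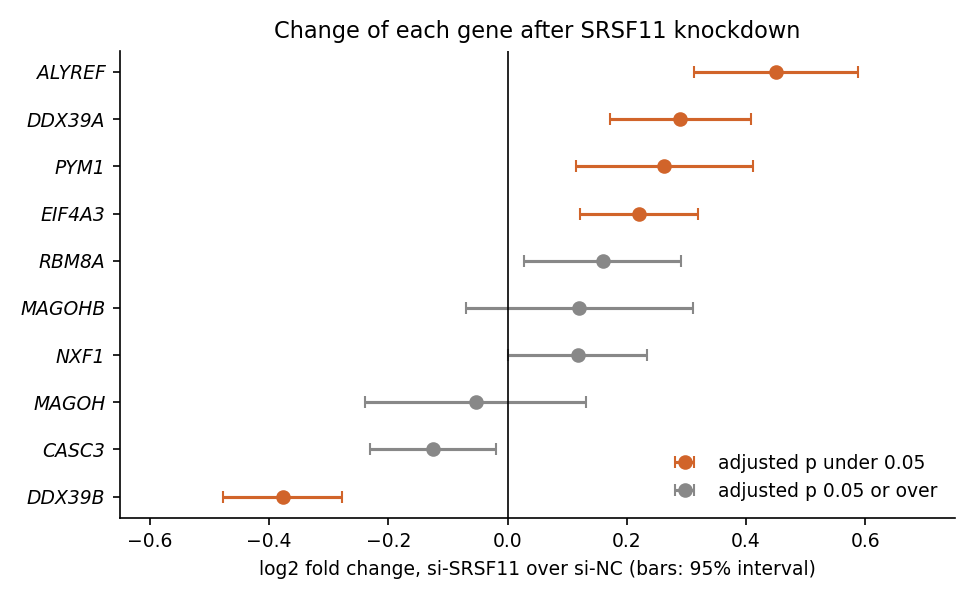
Each point is the log2 fold change of a gene, si-SRSF11 over si-NC (x axis), from 3 libraries a group, with its 95% interval as a bar. ALYREF lies highest at 0.45 and DDX39B lowest at -0.38, and the 5 genes in orange had an adjusted p under 0.05.

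Within the core, EIF4A3, the clamp on the RNA, was the subunit that passed the test. It was at 140.9, 138.8 and 143.3 CPM in si-NC and at 160.8, 172.0 and 160.0 in si-SRSF11. Every si-SRSF11 library lay above every si-NC library. EIF4A3 rose by 16.5% (log2 fold change 0.22, SE 0.048, 95% interval 0.12 to 0.32, adjusted p = 0.0017). Its gene (ENSG00000141543, chr17:80135214-80147183, minus strand) shares no exon base with another annotated gene.

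RBM8A, the partner of both MAGOH proteins, was at 51.7, 48.2 and 46.9 CPM in si-NC and at 51.4, 54.5 and 58.0 in si-SRSF11. The groups overlapped, since si-SRSF11 replicate 1 lay just below si-NC replicate 1. The log2 fold change of RBM8A was 0.16 (SE 0.063, adjusted p = 0.070), and without si-SRSF11 replicate 1 it was 0.20 with an adjusted p of 0.034. Of its exon bases 26.9% also lie in exons of other genes, among them GNRHR2 and LIX1L-AS1 on the opposite strand, which had at most 20 and 8 counts in any library. The library kit does not mark strand, so reads there could not be told apart by strand.

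MAGOH did not pass the test, and its si-SRSF11 libraries were scattered. It was at 37.9, 34.3 and 37.2 CPM in si-NC and at 29.2, 40.7 and 35.3 in si-SRSF11. Both the lowest and the highest MAGOH values were in si-SRSF11 libraries, replicates 1 and 2. The log2 fold change was -0.05 (SE 0.090, 95% interval -0.24 to 0.13, adjusted p = 0.71), and it turned to 0.06 without si-SRSF11 replicate 1. MAGOHB, which encodes a nearly identical protein, ranged from 17.3 to 19.3 CPM in si-NC and from 18.5 to 20.7 in si-SRSF11 (log2 fold change 0.12, 95% interval -0.07 to 0.31, adjusted p = 0.37).

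CASC3, the core subunit that joins last, was at 103.6, 105.3 and 102.3 CPM in si-NC and at 95.5, 99.6 and 90.3 in si-SRSF11. All si-SRSF11 libraries lay below all si-NC libraries, but the log2 fold change of -0.12 (SE 0.051, 95% interval -0.23 to -0.02) had an adjusted p of 0.077. Under scaling by library size the adjusted p was 0.027, and with protein-coding genes alone it was 0.0497. EIF4A3 and CASC3, which meet in the same core, therefore had point estimates on opposite sides of 0, of which the EIF4A3 estimate passed the test.

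PYM1, the recycling factor, had 419 to 434 counts in si-NC and 524 to 561 in si-SRSF11. It was at 28.9, 27.9 and 27.9 CPM in si-NC and at 34.9, 32.2 and 34.4 in si-SRSF11. The groups did not overlap, and PYM1 rose by 19.97% (log2 fold change 0.26, SE 0.072, adjusted p = 0.0095). Of its exon bases 14.6% also lie in exons of DGKA on the opposite strand, and none of these are in the principal transcript. DGKA had 496 to 540 counts in si-NC and 564 to 577 in si-SRSF11.

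**Figure D2:**
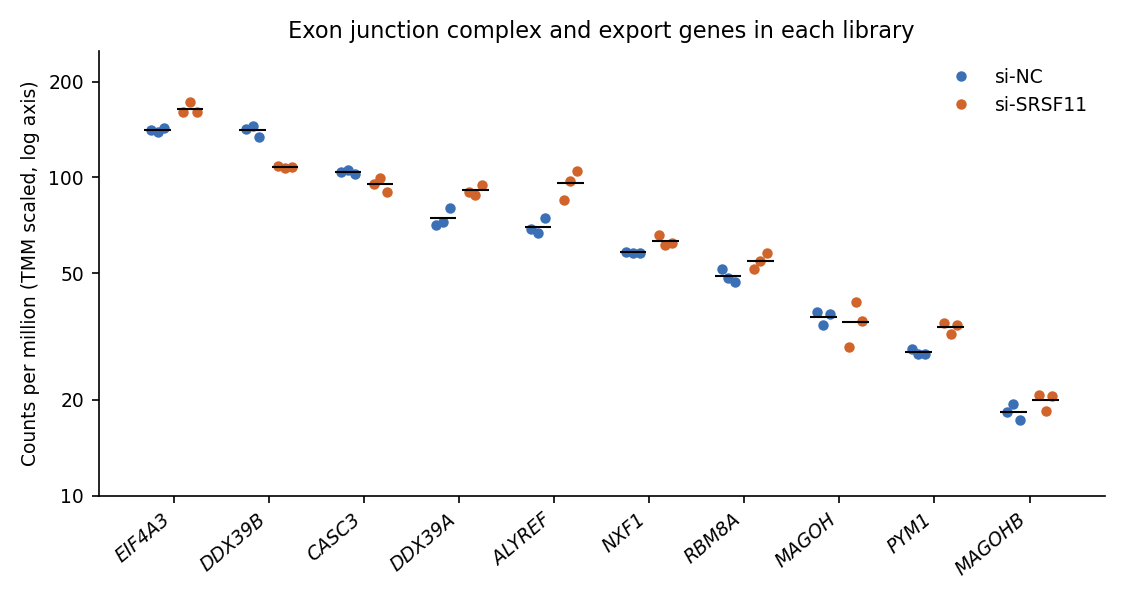
Points are TMM-scaled CPM in each of the 3 si-NC (blue) and 3 si-SRSF11 (orange) libraries on a log axis, and black lines are group means. Within a gene the colours separate for 7 of 10 members, whereas heights of different genes are not corrected for length and are not to be compared.

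The TREX members changed the most: ALYREF and DDX39A rose while the paralog DDX39B fell. The promoters of these 3 genes, picked for these changes, are shown. Each holds 250 bases before and 50 after the RefSeq start (GRCh38.p14, all on the minus strand, 5′ to 3′), and capitals mark matches on either strand to the CCAAT box (the letters CCAAT themselves), the GC box (the letters GGGCGG), the TATA box (the letters TATAAA) or the E-box (the letters CACGTG).
ALYREF promoter, chr17:81891538-81891837: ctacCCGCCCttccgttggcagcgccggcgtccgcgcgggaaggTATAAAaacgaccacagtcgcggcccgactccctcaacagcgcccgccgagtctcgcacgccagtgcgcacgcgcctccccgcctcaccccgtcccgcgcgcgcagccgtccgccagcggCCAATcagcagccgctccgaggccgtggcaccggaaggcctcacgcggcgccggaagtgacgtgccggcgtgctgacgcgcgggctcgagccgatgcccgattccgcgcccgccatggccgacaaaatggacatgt
DDX39A promoter, chr19:14419334-14419633: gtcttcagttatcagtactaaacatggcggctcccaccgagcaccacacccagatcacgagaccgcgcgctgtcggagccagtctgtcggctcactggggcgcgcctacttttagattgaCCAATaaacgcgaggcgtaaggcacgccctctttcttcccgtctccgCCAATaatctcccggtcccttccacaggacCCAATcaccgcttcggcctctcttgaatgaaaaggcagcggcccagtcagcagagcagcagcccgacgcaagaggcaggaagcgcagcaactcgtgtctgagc
DDX39B promoter, chr6:31541954-31542253: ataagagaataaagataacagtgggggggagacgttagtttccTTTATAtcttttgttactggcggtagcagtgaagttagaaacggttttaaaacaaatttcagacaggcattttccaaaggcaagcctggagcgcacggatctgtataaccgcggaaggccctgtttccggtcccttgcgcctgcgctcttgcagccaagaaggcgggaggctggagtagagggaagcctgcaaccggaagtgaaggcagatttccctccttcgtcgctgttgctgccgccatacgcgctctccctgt

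The DDX39A window holds 3 CCAAT matches, and the ALYREF window 1 CCAAT match, 1 GC box and 1 TATA box. The DDX39B window holds 1 TATA box on the reverse strand. Both of these TATA matches lie toward the upstream end of their windows, far from the start. G and C made up 72.7% of the ALYREF window, 59.3% of the DDX39A window and 52.0% of the DDX39B window, beside a median of 58.7% over all promoters. RefSeq windows were matched for 9 of the 10 members, all but CASC3. Of the 9 windows 4 held CCAAT, 6 a GC box, 3 a TATA box and 1, that of EIF4A3, an E-box. Over all 35116 promoters of the same length the shares were 34.6%, 45.0%, 11.5% and 7.26%. In RBM8A a GC box and a CCAAT match overlap. These are matches of letters and carry no measurement of binding, and whether they bear on the changes was not tested.

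ALYREF, the adaptor between the helicase and NXF1, showed the largest change among the members. It was at 68.8, 66.8 and 74.5 CPM in si-NC and at 84.7, 97.6 and 104.6 in si-SRSF11. All si-SRSF11 libraries lay above all si-NC libraries, with more spread in si-SRSF11 (SD 10.1) than in si-NC (SD 4.02). ALYREF rose by 36.6% (log2 fold change 0.45, SE 0.066, 95% interval 0.31 to 0.59, adjusted p = 3.0e-05), and 13.1% of tested genes had a larger log2 fold change in size. It shares 3.94% of its exon bases with ANAPC11 on the opposite strand, which had 969 to 1149 counts in si-NC and 882 to 1272 in si-SRSF11.

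DDX39A was at 70.7, 72.5 and 80.1 CPM in si-NC and at 90.2, 87.9 and 94.9 in si-SRSF11, again without overlap. It rose by 22.2% (log2 fold change 0.29, SE 0.057, 95% interval 0.17 to 0.41, adjusted p = 0.00066). No exon base of DDX39A (ENSG00000123136, chr19:14408819-14419383, minus strand) lies in another annotated gene.

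DDX39B moved the other way. It was at 141.6, 145.5 and 134.1 CPM in si-NC and at 108.9, 107.2 and 108.1 in si-SRSF11, so that the si-SRSF11 libraries lay within 2 CPM of each other and all below si-NC. DDX39B fell by 23.0% (log2 fold change -0.38, SE 0.048, 95% interval -0.48 to -0.28, adjusted p = 5.0e-06), and 17.9% of tested genes had a larger log2 fold change in size. ALYREF, DDX39A, PYM1, EIF4A3 and DDX39B kept their direction and their adjusted p under 0.05 in all 13 alternative fits.

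What was counted for DDX39B needs care. Its gene (ENSG00000198563, chr6:31530219-31542448, minus strand) has 7007 exon bases, of which 2157 (30.8%) also lie in exons of other genes, nearly all of them in the readthrough gene ATP6V1G2-DDX39B. The shared bases make up 97.5% of the principal DDX39B transcript (2133 bases in 11 exons) and leave 54 of its bases to DDX39B alone. The readthrough gene had 0, 1 and 4 counts in si-NC and none in si-SRSF11. Of the 4850 exon bases that only DDX39B holds, 91.5% lie in transcripts annotated as retained introns and 13.9% in protein-coding transcripts, and the intron between exons 6 and 7 of the principal transcript (2455 bases) holds 50.6% of them.

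In the whole table, of 440 protein-coding genes with 95% or more of their exon bases in exons of other genes, 435 (98.9%) had a mean count under 10, against 42.2% of 11097 such genes with no shared base. These classes of genes were not matched for transcription, and DDX39B, with 30.8% of its exon bases shared, is in neither. The counting program is not given in the sources used here, and gene counts do not show on which exons reads fell. The fall of DDX39B therefore describes the reads assigned to the gene as a whole, and whether spliced DDX39B mRNA, retained introns or both were lower cannot be told apart.

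**Figure D3:**
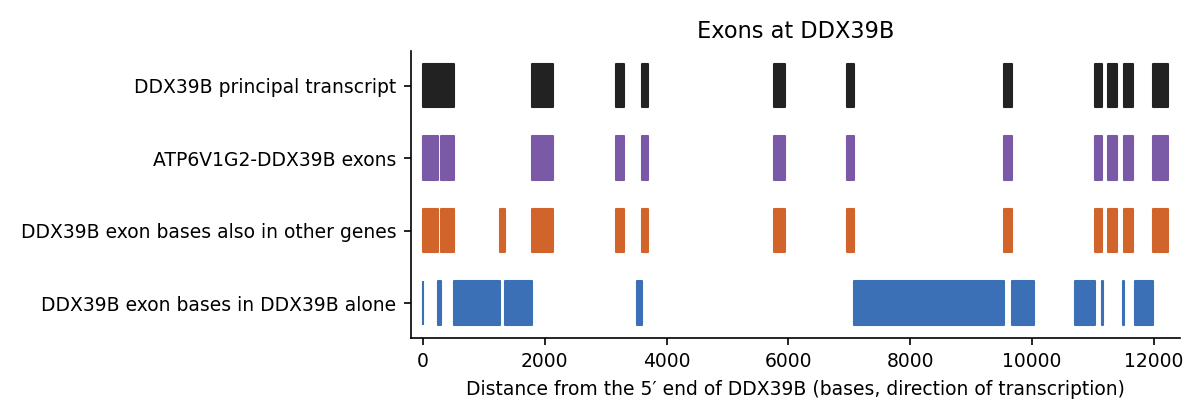
The x axis is the distance from the 5′ end of DDX39B in bases, in the direction of transcription, and blocks are annotated exon bases within the gene. The exons of the principal transcript (black) nearly all recur in ATP6V1G2-DDX39B (purple) and so among the shared bases (orange), whereas the bases of DDX39B alone (blue) lie mostly between them, with a block of 2455 bases between exons 6 and 7.

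NXF1, the export receptor, ranged from 58.0 to 58.3 CPM in si-NC and from 61.2 to 65.9 in si-SRSF11. The groups did not overlap, but the log2 fold change of 0.12 (SE 0.056, 95% interval 0.00096 to 0.23) had an adjusted p of 0.13 and did not pass in any alternative fit. Its cofactor NXT1 had a log2 fold change of -0.06 (adjusted p = 0.65) and NXT2 of 0.09 (adjusted p = 0.75). The other NXF genes, which are known mainly from testis and brain, did not pass the filter on low counts. NXF2, NXF2B and NXF5 had no counts in any library, and NXF3 had 3 counts in si-SRSF11 replicate 2 and none elsewhere. Of the exon bases of NXF2B 87.1% lie in exons of other genes, so its lack of counts does not show that it was silent.

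The share of a paralog pair's counts that each gene takes was compared over libraries. DDX39A took 33.3%, 33.3% and 37.4% of the DDX39A and DDX39B counts in si-NC and 45.3%, 45.0% and 46.8% in si-SRSF11. The mean was 34.7% ± 2.37 in si-NC and 45.7% ± 0.93 in si-SRSF11 (SD, n = 3), a difference of 11.1 percentage points with no overlap. The exact two-sided permutation test gave p = 0.10, the smallest that 3 against 3 libraries allow (adjusted over the 2 pairs, 0.20), so this test could not pass 0.05 by design. The DDX39B counts in this share are those described above. MAGOH took 67.4%, 63.9% and 68.2% of the MAGOH and MAGOHB counts in si-NC and 58.5%, 68.8% and 63.2% in si-SRSF11, a difference of -3.02 percentage points with overlapping groups (exact permutation p = 0.50).

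**Figure D4:**
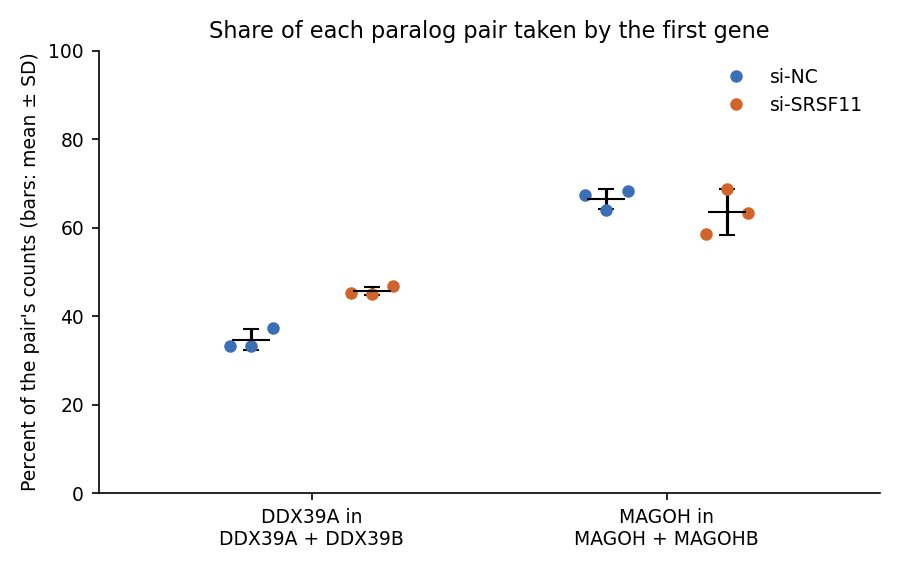
Points are the percent of each pair's counts taken by the first gene in each library, and black bars are the mean ± SD of 3 libraries. The DDX39A share lies between 33.3% and 37.4% in si-NC and between 45.0% and 46.8% in si-SRSF11, while the MAGOH shares of the 2 conditions overlap.

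Levels of different genes were set side by side only per length. In TPM (counts per base of the table's length column, scaled to a library total of 1000000) the order in si-NC ran from ALYREF (134 ± 7.49, SD, n = 3) over EIF4A3 (85.4 ± 1.46), MAGOH (74.9 ± 4.23), DDX39B (60.3 ± 2.56), DDX39A (58.3 ± 3.67), CASC3 (48.9 ± 0.75), PYM1 (35.0 ± 0.95), NXF1 (28.2 ± 0.28) and RBM8A (26.4 ± 1.49) to MAGOHB (11.3 ± 0.62). In that order DDX39B and DDX39A were the only neighbours whose ranges overlapped. The lowest NXF1 value (28.04) and the highest RBM8A value (28.01) nearly met. Of the exon bases of RBM8A 26.9% also lie in exons of other genes, so the order of NXF1 and RBM8A is uncertain. The core subunits thus spanned a wide range of TPM levels, from MAGOHB, which can take the place of MAGOH in the complex, to EIF4A3. In si-SRSF11 DDX39A (67.3 ± 2.18 TPM) stood above DDX39B (43.8 ± 1.23 TPM). The DDX39B counts are those described above, so its place beside DDX39A is uncertain in both groups. In si-SRSF11 the ranges of MAGOH and DDX39A, of DDX39B and CASC3, of CASC3 and PYM1, and of NXF1 and RBM8A overlapped.

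The length column is the union of all exons, retained introns included (4967 bases for EIF4A3, against 1734 in its principal transcript), and the order depends on it. Per kilobase of principal transcript, a scale chosen after the data were seen, EIF4A3 was highest in si-NC (81.3 CPM per kilobase), followed by DDX39B (65.8) and ALYREF (64.4), whose ranges overlapped. For DDX39B this divides counts that may lie mostly outside the principal transcript by its length, so its place in this order is uncertain. RBM8A (9.86) and MAGOHB (6.98) were the lowest on this scale. MAGOH lay above its paralog MAGOHB on both scales, in each library of both conditions.

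Genes that work next to the members were taken from 9 lists of 55 genes, of which 48 were tested. Of these 48, 21 passed the test, 16 higher and 5 lower, and their median log2 fold change was 0.08, beside 0.0015 over all tested genes. The called share was 43.8%, beside the 24.6% over all tested genes and the 32.8% at the members' levels given above. The lists were chosen with earlier results of these data known, so this share is no independent test. In DESeq2 the count was 13 (9 higher), or 27.1% of the 48, beside 18.9% of all tested genes. Without si-NC replicate 1 it was 12, or 25% of the 48, and 2741 of 15626 tested genes passed in that fit. Of the related genes 9 passed in every fit. The lists below hold 3 to 10 genes each, so their counts are descriptions to be read against these shares. Without a single library the lower calls ranged from 1 to 5, with 2, 3 and 1 after leaving out si-NC replicates 1, 2 and 3 and 3 after leaving out si-SRSF11 replicate 2.

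Of the 4 peripheral exon junction complex genes, which link the core to splicing regulation, 2 rose and 1 fell. PNN was at 51.0 ± 0.49 CPM in si-NC and 64.1 ± 4.35 in si-SRSF11 (SD, n = 3; log2 fold change 0.33, adjusted p = 0.00036). RNPS1 rose from 160.6 ± 5.45 to 186.6 ± 4.68 CPM (0.22, adjusted p = 0.0018). ACIN1, which forms the ASAP complex with RNPS1 and SAP18, fell (-0.16, adjusted p = 0.018), and it lost the call without si-NC replicate 2 or 3 (adjusted p up to 0.081). Of the 3 genes that load the core on RNA during splicing, CWC22, which delivers EIF4A3 to the spliceosome, rose (0.33, adjusted p = 0.039), as did the helicase AQR (0.23, adjusted p = 0.024). Both lost the call in DESeq2, with adjusted p of 0.093 and 0.059. Of all 13 alternative fits CWC22 lost the call in 6 and AQR in 5.

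The THO complex, the partner of DDX39B in TREX, had 4 of 6 subunits higher and 1 lower, with a median log2 fold change of 0.26. The fourth higher call was THOC3 (0.26, adjusted p = 0.027), named after its value was seen, whose groups overlapped and whose adjusted p was 0.26 in DESeq2. It lost the call in 4 of the 13 alternative fits. THOC7 rose from 30.3 ± 2.47 to 39.5 ± 2.54 CPM (SD, n = 3; log2 fold change 0.38, adjusted p = 0.00072), THOC5 by 0.27 on the log2 scale (adjusted p = 0.0017) and THOC2 by 0.26 (adjusted p = 0.014). THOC2 lost the call without si-NC replicate 1 or si-SRSF11 replicate 1 (adjusted p up to 0.079). THOC6, named after its value was seen as the gene that fell, was at -0.20 (adjusted p = 0.018), and it lost the call without si-NC replicate 1 or 3 or si-SRSF11 replicate 2. Among 8 further TREX adaptors and their partners 5 were tested, and FYTTD1 (also called UIF), an adaptor that like ALYREF binds NXF1, rose from 82.4 ± 1.03 to 98.8 ± 4.67 CPM (0.26, adjusted p = 0.00075). SARNP and ZC3H11A did not reach the filter, with 1 to 10 and 2 to 5 counts, and 38.5% and 93.6% of their exon bases lie in exons of other genes. LUZP4 had no counts.

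The TREX-2 complex links the gene to the pore, and 3 of its 6 listed genes rose, of which CETN2 kept its call in DESeq2. CETN2, a centrin that also serves centrioles and DNA repair, had the largest change among all the related genes, from 14.9 ± 0.62 to 23.7 ± 0.71 CPM (SD, n = 3; log2 fold change 0.67, adjusted p = 9.0e-06). SEM1, which is also a proteasome subunit, rose (0.39, adjusted p = 0.0069), but its groups overlapped and its adjusted p was 0.15 in DESeq2. It also lost the call without si-SRSF11 replicate 2. PCID2 rose (0.17, adjusted p = 0.020) and had an adjusted p of 0.051 in DESeq2. It lost the call in 5 of the 13 alternative fits.

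Of 9 genes for the passage and release of RNA at the pore 3 rose and 1 fell, and of these 4 RANBP2 kept its call in DESeq2. RANBP2 rose from 27.4 ± 3.03 to 35.1 ± 0.56 CPM (SD, n = 3; log2 fold change 0.36, adjusted p = 0.0018). TPR (0.28, adjusted p = 0.029) and GLE1 (0.19, adjusted p = 0.035) lost the call in DESeq2, with adjusted p of 0.068 and 0.091. Of all 13 alternative fits TPR lost the call in 7 and GLE1 in 6. NUP214, named after its value was seen, was lower (-0.18, adjusted p = 0.044) and had an adjusted p of 0.081 in DESeq2. It lost the call in 5 of the 13 alternative fits. Of the 3 nuclear cap-binding genes SRRT (also called ARS2) rose from 91.6 ± 3.72 to 115.5 ± 3.83 CPM (0.33, adjusted p = 4.1e-05).

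The surveillance genes read the exon junction complex as a signal for nonsense-mediated decay, and 2 of 10 passed the test, both lower, a share (20%) near the 24.6% of all tested genes. SMG9, a regulator of the kinase SMG1, fell from 59.95 ± 3.49 to 44.5 ± 0.18 CPM (SD, n = 3; log2 fold change -0.43, adjusted p = 1.9e-05). SMG5, an adaptor that brings in RNA decay enzymes, fell by 0.15 on the log2 scale (adjusted p = 0.028) and lost the call without si-NC replicate 1 or 3 or si-SRSF11 replicate 2 (adjusted p up to 0.13).

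**Figure D5:**
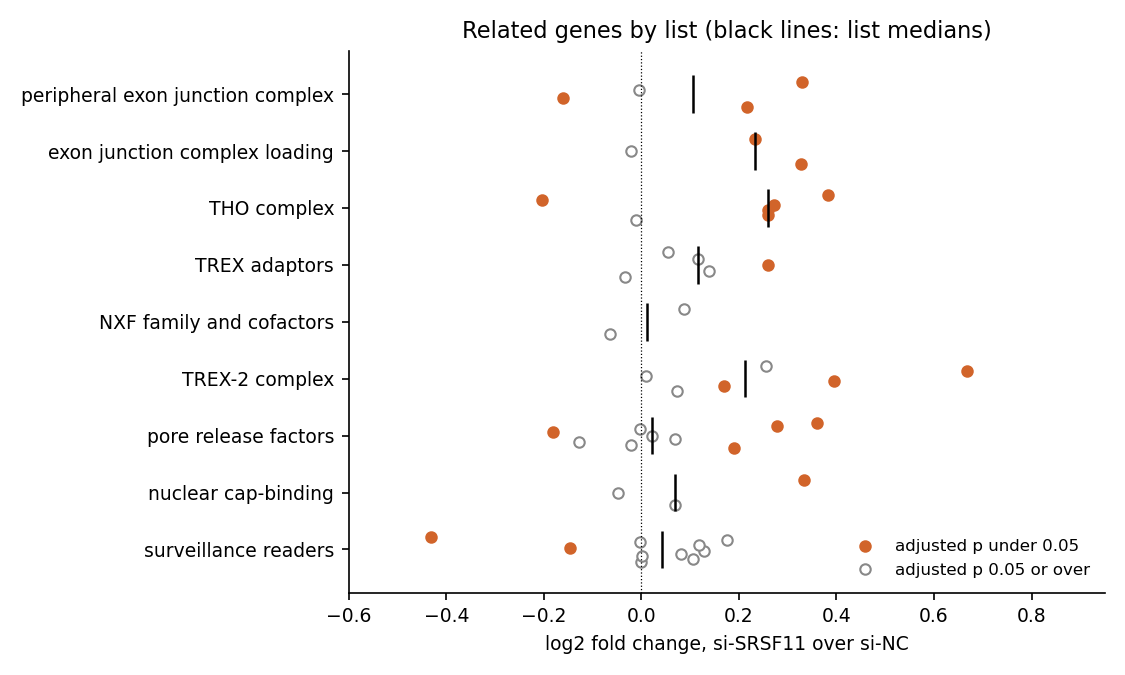
Each point is a tested gene of one of the 9 related lists, with its log2 fold change, si-SRSF11 over si-NC, on the x axis. Filled points had an adjusted p under 0.05 (16 to the right and 5 to the left of 0), and black lines are list medians, from 0.01 in the NXF family to 0.26 in the THO complex.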

How the data were processed

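Samples were grouped by the deposited labels, which give condition and replicate number. The study's splicing plot sets the library names against the opposite conditions; the labels were used, and SRSF11 was lower in the libraries labelled si-SRSF11. Under the opposite names each fold change would turn its sign. For the 6 libraries the authors deposited unnormalized counts per gene, made on the hg38 build per the labels; the aligner and counter are not given in the sources used here. No row names a total, and no column was left out. After the filter (10 counts or more in 3 libraries or more) and TMM scaling, genes were tested with glmQLFit and glmQLFTest of edgeR (version 4.0.16, R version 4.3.3) on condition alone. The fit was tested on simulated data. The SE and 95% interval came from the quasi-likelihood F statistic. Alternatives were DESeq2 (version 1.42.0), other scalings, filters and gene sets, a replicate block, and fits without each library. TPM used the table's length column, and exon overlap used the GRCh38 annotation, whose gene positions and exon lengths equalled those of the table for 58724 of 58735 genes. Library totals ranged from 14369525 to 16685719 counts. Relative to its size, the lowest member count (265) has the largest counting error.

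The members and the related lists were chosen with earlier results of these data known. Named genes are the members, SRSF11, at most 3 genes of each related list with the smallest adjusted p under 0.05, and related genes that did not pass the filter on low counts; exceptions are marked. A cell type marker that was left out is not reported here.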

Additional observations from a re-analysis of the deposited data

How the results depend on the processing

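ALYREF, DDX39A, PYM1, EIF4A3, DDX39B and SRSF11 kept their direction and their side of the threshold in all 13 alternative fits. With a log2 fold change over 1 also required, 0 members passed (0 higher, 0 lower), against 5, 4 and 1. The lower calls were 2 (DDX39B and CASC3) under scaling by library size and with protein-coding genes alone, and 0 without DDX39B, an alternative chosen after seeing the data. Related genes gave 13 calls (9 higher) in DESeq2 and 10 higher calls under library size scaling, against 21 and 16. Over all tested genes DESeq2 gave 2994 calls against 3886, and library size scaling gave 1585 higher calls against 2081. The cause was not tested. Leaving out 1 library at a time gave 5 to 6 member calls, 12 to 22 related calls (10 to 18 higher and 1 to 5 lower), a log2 fold change of MAGOH from -0.17 to 0.056, of which 0.056 was without si-SRSF11 replicate 1, a DDX39A share difference of 10.4 to 12.4 percentage points and a MAGOH share difference of -5.65 to -0.52. Over all tested genes these fits gave from 2741 calls (without si-NC replicate 1) to 3871 (without si-SRSF11 replicate 3), against 3886 with all libraries. The study speaks of pairs of samples, and the replicate numbers were not shown to form them. The correlations of same-numbered deviations were 0.015, 0.036 and 0.04, each the highest for its number. With the replicate number as a block 5 members and 21 related genes were called, and 4036 genes in all. With 3 libraries a group, no Dixon test for a library that stands apart was run.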
